A study of Homo sapiens with 12 samples.

Results

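The comparison described here is the response of Rec-1 cells to a gamma-secretase inhibitor. Its members are 4 of the 12 arrays of the series, chosen by their labels as the Rec-1 arrays of both treatments. Rec-1 is an established human line of mantle cell lymphoma, a cancer of mature B cells, and every gene level and change below comes from this 1 line. The inhibitor group (2 arrays) held cells given 1 µM compound E, and the mock group (2 arrays) held cells given 0.1% DMSO, the solvent. Both groups were cultured for 24 h in RPMI medium with 10% serum. Whether the cells given compound E also received DMSO is not given in the sources used here. The remaining 8 arrays were of the lines Mino, in 15% serum, and SP-49, in 10% serum, under the same treatments. They entered only the estimate of the spread between replicates and the choice of 1 probe set per gene. Which transcripts change in Rec-1 when gamma-secretase is blocked was asked across 19775 genes, each represented by 1 probe set.

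Notch receptors sit in the cell membrane and are cut in turn by different proteases when a ligand on a neighbouring cell binds. Gamma-secretase makes the last cut, which frees the inner part of the receptor to enter the nucleus. There it joins the DNA-binding protein RBPJ and switches on target genes such as the HES and HEY repressors. In B cells Notch signalling is known for its part in marginal zone B-cell development, and NOTCH1 is mutated in some mantle cell lymphomas. Compound E blocks the enzyme, which also cuts many other membrane proteins, so loss of Notch and loss of its other products cannot be told apart on these arrays.

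Levels below are log2 array values, 1 unit being a doubling, and changes are inhibitor minus mock on the same scale. The deposited values ran from 0.58 to 12.78 with a median of 1.99 over all probe sets and arrays. Values near the bottom of that range are dominated by background, so a change that starts or ends there is understated. A gene rose or fell where limma's adjusted p for the change was under 0.05. The gene lists were written with earlier results of these data known, so their counts only describe and no list was tested. The labels do not say whether replicates were separate cultures, so a p-value here reflects no more than the spread of these samples, possibly a technical one. In such RNA from a whole culture, fewer cells of a kind and less RNA per cell cannot be told apart.

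Rec-1 showed the markers of its labelled cell type with some gaps. The B-cell markers MS4A1 (CD20), CD79A, CD79B, PAX5 and CD74 lay between 8.42 and 10.78 on the 4 arrays, and CD22 between 5.27 and 5.66. HLA-DRA, the chain shared by all HLA-DR molecules, lay between 1.19 and 1.65, in the background range. CCND1, the cyclin activated in mantle cell lymphoma, lay between 10.12 and 10.51, and SOX11 between 4.77 and 4.99. CD5, often present on this lymphoma, lay between 2.23 and 2.96. Defining markers of red cells, epithelium, stroma, NK cells and myeloid cells did not exceed 3.74 on any array. Of the T-cell markers, CD3D reached 4.81 while CD3E and CD2 did not exceed 3.17.

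The 4 Rec-1 arrays correlated with each other at r from 0.979 to 0.992 across probe sets. The inhibitor pair differed more between replicates than any other pair in the series, with an SD of the replicate difference of 0.372 against 0.253 for the Rec-1 mock pair. Inhibitor replicate 2 had the narrowest range of values (SD 1.95, against 2.01 to 2.03 on the other Rec-1 arrays). For GAPDH the 3' control probe set exceeded the 5' one, a measure of RNA integrity, by 0.41 and 0.37 on the mock arrays and by 0.59 and 0.49 on the inhibitor arrays. The same gap for ACTB overlapped, at 2.0 and 1.83 against 2.29 and 1.92. All gene groups below were measured on these same arrays, and the part of the GAPDH gap in any of them was not tested.

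The promoter sequences of a few genes are shown first, since 3 gene groups of the results carry short motifs in front of or at their start sites. They come from RefSeq on the GRCh38.p14 build and run 5′ to 3′ on the strand of the gene. Capitals mark GTGGGAA, the form of the RBPJ site searched for, CACGTG, the E-box bound by MYC with its partner MAX, or GAAANNGAA, the core of the element bound by interferon-activated factors. HES1 and HES4 were taken as the most strongly changed direct Notch targets with a promoter that could be shown. The other 6 were chosen after their values were seen, as strongly changed members of their groups that hold the motif.
HES1: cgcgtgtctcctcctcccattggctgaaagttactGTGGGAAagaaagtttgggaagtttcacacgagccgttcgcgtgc
HES4: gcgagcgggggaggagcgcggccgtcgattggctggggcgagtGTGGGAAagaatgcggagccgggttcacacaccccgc
PNO1: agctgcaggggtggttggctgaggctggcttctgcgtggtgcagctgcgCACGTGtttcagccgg
MRTO4: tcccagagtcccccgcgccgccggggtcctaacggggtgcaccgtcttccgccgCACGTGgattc
PES1: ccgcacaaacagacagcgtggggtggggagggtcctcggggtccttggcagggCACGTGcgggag
ISG15: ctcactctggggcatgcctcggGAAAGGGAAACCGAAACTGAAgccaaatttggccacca
MX1: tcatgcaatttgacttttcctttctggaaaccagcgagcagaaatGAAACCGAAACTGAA
IFI44L: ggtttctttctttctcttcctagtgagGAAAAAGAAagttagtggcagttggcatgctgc

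The HES1 window lies at chr3:194136028-194136107 on the plus strand and the HES4 window at chr1:1000138-1000217 on the minus strand, both just before the annotated start. The windows of PNO1 (chr2:68157848-68157912, plus), MRTO4 (chr1:19251765-19251829, plus) and PES1 (chr22:30591886-30591950, minus) span the start site and end 25 bases after it. Those of ISG15 (chr1:1013362-1013421, plus) and IFI44L (chr1:78620348-78620407, plus) lie before the start, and that of MX1 (chr21:41420524-41420583, plus) spans it. Counting the first base of the gene as 1 and the base before it as -1, the RBPJ motif begins at -85 in HES1 and at -77 in HES4. The E-box begins at 10 in PNO1, at 15 in MRTO4 and at 14 in PES1. ISG15 holds 3 overlapping matches to the interferon motif, at -113, -107 and -101. MX1 holds 2, at 12 and 18, and IFI44L has 1 in the window, at -73.

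Of the 19775 genes, 1141 changed past the threshold (5.77%), 426 of them higher with the inhibitor (2.15%) and 715 lower (3.62%). With a second round of quantile normalization the split was 657 higher and 600 lower, so the share of calls that were higher went from 37.3% to 52.3%. The median change of all genes was 0.01. For every called gene both inhibitor arrays lay on the same side of both mock arrays, as they did for 45.3% of all genes. At least a 2-fold change was seen in 102 genes that rose and 187 that fell, and at least 4-fold in 6 and 9. Genes that fell started from a median mock level of 6.36, genes that rose from 5.07, and all genes from 2.65.

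The number of calls depended on single arrays. It was 426 without mock replicate 1, 414 without mock replicate 2, 1997 without inhibitor replicate 1 and 738 without inhibitor replicate 2. Fitting only the 4 Rec-1 arrays, which leaves the spread to 2 pairs, called 21 genes. Of the 226 called genes that the naming rule picked, 113 were called in all 12 fits that left out 1 array. The genes named below are among these unless their largest adjusted p in those fits is given. Some calls said to be lost without a Rec-1 array were also lost without an array of Mino or SP-49.

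**Figure D1:**
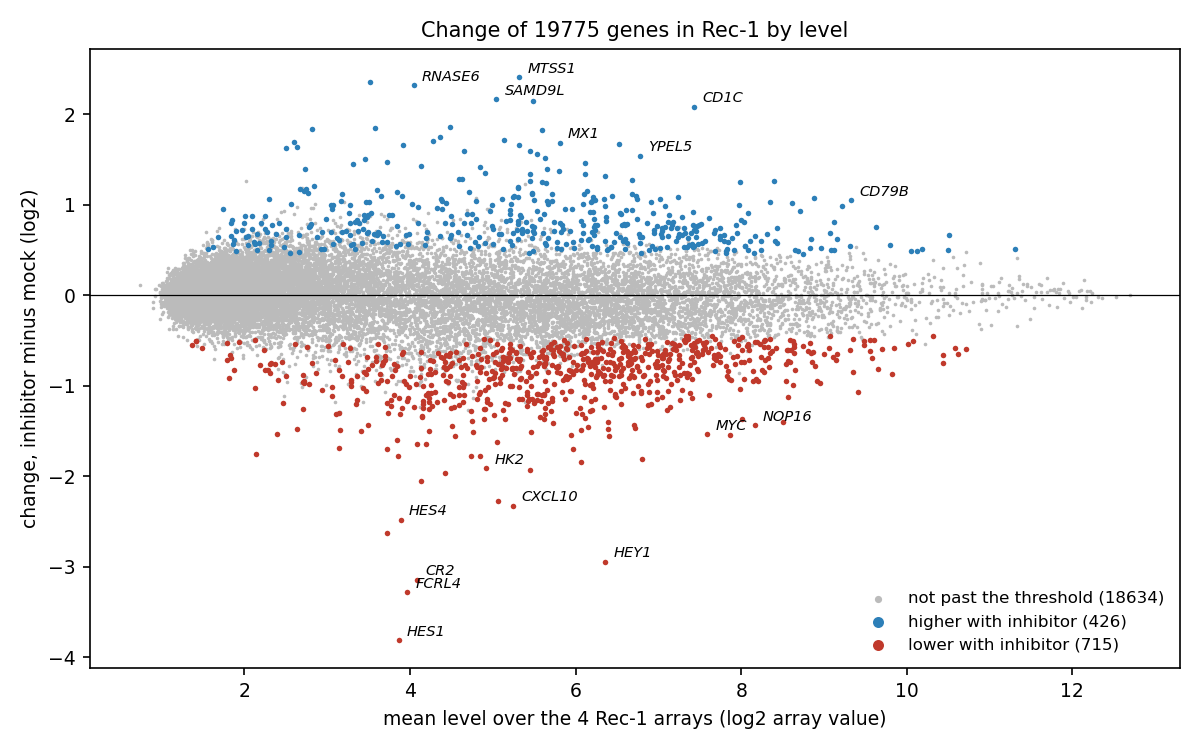
Change of each of the 19775 genes (vertical axis, inhibitor minus mock, log2) against its mean level over the 4 Rec-1 arrays (horizontal axis, log2 array value). Blue points are the 426 genes higher with the inhibitor, red points the 715 lower and grey points the rest; HES1, with a change of -3.80, lies lowest.

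HES1, a direct target of Notch, fell most of all genes tested, and HEY1 and HES4 were among the 6 largest falls. HES1 encodes a repressor and was at 5.86 and 5.67 on the mock arrays and at 2.23 and 1.70 with the inhibitor. The groups lay far apart, and the inhibitor values were at the background end of the scale. The change was -3.80 (SE 0.195, limma adjusted p = 3.45e-06), 14.0-fold lower. HEY1, a related repressor, was at 7.88 and 7.77 in mock cells and at 5.24 and 4.53 with the inhibitor, 7.68-fold lower (adjusted p = 4.42e-05). HES4, a further member of this family, went from 5.11 and 5.14 to 2.60 and 2.70, 5.56-fold lower (adjusted p = 0.000159). NRARP, which is induced by Notch and damps it in turn, went from 5.43 and 5.44 to 4.10 and 4.0, 2.61-fold lower (adjusted p = 0.000504). In all 4 genes the replicates of a treatment lay much closer to each other than to the other treatment.

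Other members of the HES and HEY families did not pass the threshold. HEY2 was at 4.79 and 4.89 in mock cells and at 4.26 and 3.71 with the inhibitor, a change of -0.86 (SE 0.333, adjusted p = 0.182). HEYL was at 2.56 and 2.63 against 2.66 and 3.25 (adjusted p = 0.312). HES5, a target in many tissues, lay between 1.68 and 1.83 on all 4 arrays, in the background range, where no fall could be seen.

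MYC, the growth regulator and a direct Notch target in lymphoid cells, was at 8.32 and 8.38 in mock cells and at 7.12 and 6.52 with the inhibitor. It fell by 1.53 (SE 0.176, adjusted p = 0.000754), 2.9-fold, with no overlap between the groups. DTX1, a ubiquitin ligase of the pathway, was at 8.93 and 8.82 against 8.36 and 8.39. It fell by 0.50 (adjusted p = 0.0371), but leaving out mock replicate 1 raised that to 0.2. It also missed the threshold without any 1 of the other 3 Rec-1 arrays, any 1 Mino inhibitor array or any 1 SP-49 mock array.

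Of the 23 direct Notch targets measured, 7 fell and 2 rose, or 30.4% and 8.7% of the list against 3.62% and 2.15% of all genes. The median change was -0.20, against 0.01 over all genes, and it was 0.03 without mock replicate 1 and -0.10 with a gene's probe sets averaged. The 7 that fell were HES1, HEY1, HES4, NRARP, MYC, NOTCH3 and DTX1. DTX3L, a ubiquitin ligase that is also induced by interferon, rose from 6.21 and 6.03 to 7.22 and 7.26 (adjusted p = 0.00139). CDKN1A, the inhibitor of cyclin-dependent kinases known as p21, was at 3.00 and 2.74 against 3.36 and 3.99, a rise of 0.81 (adjusted p = 0.0378). The call for CDKN1A was kept in 1 of the 12 fits that left out an array, that without inhibitor replicate 1, and its adjusted p reached 0.227. Without inhibitor replicate 1 the list held 5 members that rose, and 1 without each of the other Rec-1 arrays.

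Of the 4 receptors NOTCH3 alone passed the threshold. NOTCH1, the receptor mutated in this lymphoma, was at 5.46 and 5.51 against 5.65 and 5.66 (change 0.17, SE 0.116, adjusted p = 0.474). Its other probe set had a change of -0.37. NOTCH2 was at 8.15 and 7.97 against 8.37 and 8.19 (adjusted p = 0.42), and NOTCH4 at 3.77 and 4.23 against 3.69 and 3.77 (adjusted p = 0.39). NOTCH3, a receptor gene that is itself a Notch target, fell from 3.66 and 3.84 to 2.70 and 2.94 (adjusted p = 0.00466), with an adjusted p of 0.0529 without mock replicate 2. A second, dimmer probe set of NOTCH3 had a change of 0.05.

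Of the 16 receptors, ligands and sugar-transferases that act on the receptor, 3 fell (18.8%, against 3.62% of all genes) and none rose, with a median of -0.11. With a gene's probe sets averaged 1 fell. MFNG, a fringe enzyme that adds sugar to Notch and shapes its choice of ligand, was at 6.12 and 6.24 against 5.53 and 5.26 (adjusted p = 0.00894). POGLUT1, which glucosylates Notch, was at 6.14 and 6.26 against 5.52 and 5.19 (adjusted p = 0.0132). Leaving out 1 array raised the adjusted p to 0.0804 for MFNG (mock replicate 2; also lost without inhibitor replicate 2) and to 0.104 for POGLUT1 (mock replicate 2; also lost without mock replicate 1 or inhibitor replicate 2). The list held 0 calls without mock replicate 2 and 1 without inhibitor replicate 2. The 27 genes of cleavage and of the nuclear complex, the gamma-secretase subunits among them, held no call in either direction by limma, with 4 at an unadjusted p under 0.05. Their median was -0.08, and 0.04 after quantile normalization was applied again. The brightest of them, SKP1, HDAC1 and CTBP1, had changes of 0.06, 0.11 and -0.00, and the last of 0.05 in that alternative. Other probe sets of CTBP1 changed by 0.05, -0.63 and -0.02, the second of these from 7.38 and 7.41 to 6.73 and 6.81. Those of SKP1 changed by 0.02, -0.23 and -0.32.

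**Figure D2:**
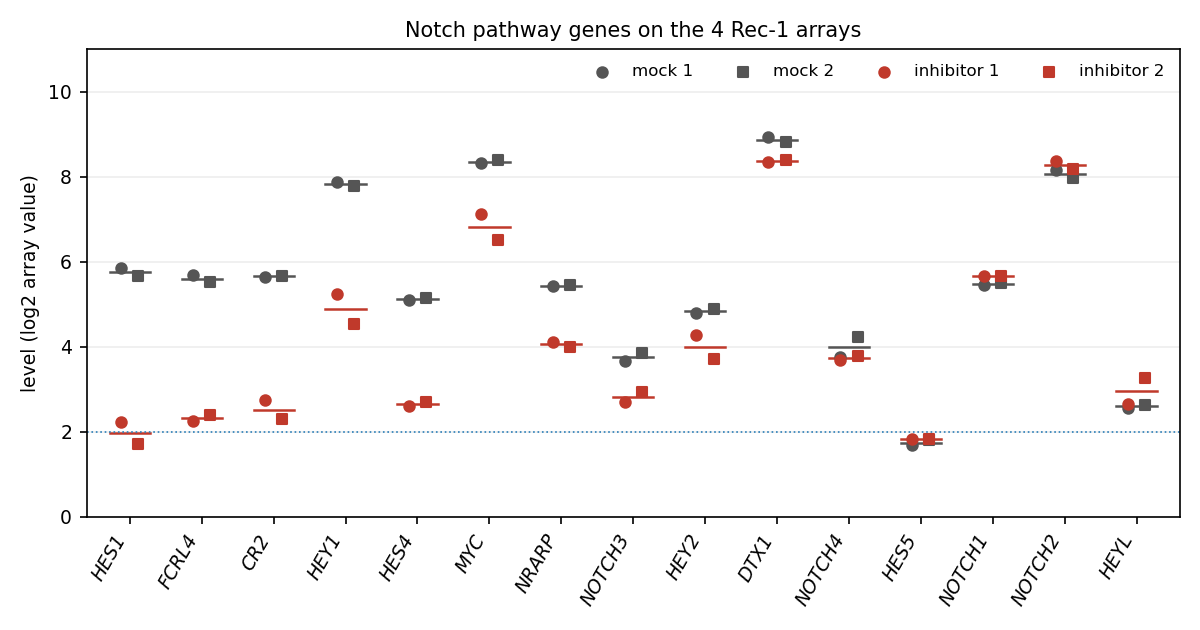
Level of 15 Notch pathway genes (log2 array value) on the 2 mock arrays (grey) and the 2 inhibitor arrays (red) of Rec-1, ordered by change; circles are replicate 1, squares replicate 2, bars the mean of each pair, and the dotted line the median of all probe sets, 1.99. HES1, FCRL4 and CR2 drop to between 1.70 and 2.74, while NOTCH1 and NOTCH2 stay at their mock levels to within 0.3.

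Among genes tied to Notch in B cells, CR2 and FCRL4 fell by more than HEY1 and by less than HES1. Like the other lists, this one was written with earlier results of these data known. CR2 (CD21), the receptor for complement fragment C3d, is a marker of marginal zone and mature B cells. It was at 5.63 and 5.67 in mock cells and at 2.74 and 2.29 with the inhibitor, 8.82-fold lower (change -3.14, SE 0.160, adjusted p = 3.45e-06). FCRL4, an Fc receptor-like molecule of memory B cells, was at 5.69 and 5.51 against 2.26 and 2.39, 9.69-fold lower (adjusted p = 3.45e-06). Both ended near background, and the other 2 probe sets of FCRL4 gave changes of -3.22 and -2.94. The second probe set of CR2 was dim on all arrays and had a change of -0.42.

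CD300A, an inhibitory receptor, went from 8.62 and 8.64 to 7.03 and 7.15 (2.91-fold lower, adjusted p = 0.0025). SH2B2, an adaptor of tyrosine kinase signalling, went from 7.15 and 7.37 to 6.23 and 6.28, 2-fold lower (adjusted p = 0.00139). FYN, a Src-family kinase, went from 8.61 and 8.66 to 7.69 and 7.73 (1.9-fold lower, adjusted p = 0.00233). In these 3 genes the pairs of each treatment lay within 0.3 of each other. A second probe set of CD300A gave a change of -1.99, and further probe sets of FYN gave -1.74 and -1.16.

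Of the 20 genes of this list, 7 fell (35.0%, against 3.62% of all genes) and 1 rose (5.0%, against 2.15%). The median was -0.25. CDK5R1, an activator of the kinase CDK5, fell from 2.76 and 2.88 to 2.21 and 1.97, and SEMA7A, a semaphorin, from 4.06 and 4.13 to 3.19 and 3.08. BIK, a BH3-only promoter of apoptosis, rose from 2.31 and 2.51 to 3.40 and 2.95. Each of these 3 lost its call without mock replicate 1 or mock replicate 2. CDK5R1 and SEMA7A lost it also without inhibitor replicate 2, and BIK without inhibitor replicate 1, with largest adjusted p of 0.133 to 0.14.

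The RBPJ motif was held by 5 of the 17 direct Notch targets with a RefSeq promoter (29.4%), each promoter covering 250 bases before and 50 after the start. These were HES1, HES4, HES5, HEY2 and HEYL, so of the 5 promoters with the motif 2 belonged to genes that fell. Among all 15384 measured genes with a promoter, 6.1% held it. Among genes that fell 5.2% did, and among genes that rose 3.8%. All 3 motifs were counted on both strands, matches may overlap, CACGTG reads the same on either strand, and a match is no evidence of binding.

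Growth genes made up the broadest group of falls. Of the 654 genes in the 16 growth lists, 186 fell (28.4%, against 3.62% of all genes) and 8 rose (1.2%, against 2.15%). Their median change was -0.30. Growth-list genes made up 186 of the 715 falls among all genes. The 4944 brightest genes, from a mean level of 5.18 up, had a median change of -0.07 (-0.01 on inhibitor replicate 1 and -0.13 on inhibitor replicate 2). Of these brightest genes 472 fell and 252 rose, while of the 4944 dimmest 4 fell and 3 rose. The shares of all genes given beside the lists are not matched for level.

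The factors that build ribosomes in the nucleolus showed the most uniform fall. Of 61 measured, 47 fell (77.0%, against 3.62% of all genes) and none rose. All 61 had a negative change, the median being -0.80. The median level of the list was 7.15 and 7.08 on the mock arrays and 6.10 and 6.02 on the inhibitor arrays. Of these, RRP12, needed for the export of the small subunit, went from 5.41 and 5.23 to 3.71 and 3.83 (change -1.55, SE 0.143, adjusted p = 0.000247). MRTO4, which prepares the stalk of the large subunit, went from 6.68 and 6.76 to 5.30 and 5.05 (change -1.54, adjusted p = 0.00051). TSR1, a factor of the small subunit, went from 7.50 and 7.39 to 5.95 and 6.02 (change -1.46, adjusted p = 0.000159).

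These 3 genes fell by between 2.75-fold and 2.93-fold, and both replicates moved alike. NOP16, a nucleolar protein, went from 8.95 and 8.81 to 7.37 and 7.52, and LYAR from 7.69 and 7.78 to 6.54 and 6.41. PNO1, a partner in the cutting of 18S rRNA precursors, went from 7.78 and 7.74 to 6.47 and 6.59. DDX21, an RNA helicase, and PES1, of the PeBoW complex, fell by 1.07 and 1.05. The count of 47 was 28, 29, 46 and 33 without mock replicate 1, mock replicate 2, inhibitor replicate 1 and inhibitor replicate 2, and none rose in any of these fits. The median ran from -0.76 to -0.88 in them and was -0.69 after quantile normalization was applied again.

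The E-box CACGTG was present in 24 of the 51 ribosome biogenesis promoters in the table (47.1%), against 8.9% of all promoters. In 16 of the 24 it lay at or after the gene start, as in PNO1, MRTO4 and PES1 above. Of these 24 genes 19 fell, beside 47 of all 61 measured in the list (77.0%). Among all genes that fell 19.8% of promoters held an E-box, and among those that rose 5.3%. When only the bases before the start were searched, 8 of the 51 ribosome biogenesis promoters held an E-box (15.7%). The shares in that search were 13.0% for genes that fell, 5.3% for genes that rose and 7.8% for all. Median GC content of the promoters was 65.3% for genes that fell, 62.8% for genes that rose and 63.0% for all, and its part in the shares was not tested.

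RNA polymerases I and III, which make ribosomal and transfer RNA, shared part of this fall. Of 34 genes measured, 9 fell (26.5%, against 3.62% of all genes) and none rose, with a median of -0.34. POLR3G, a subunit of polymerase III, went from 4.14 and 3.84 to 2.58 and 2.03 (3.22-fold lower, adjusted p = 0.0025), and POLR1C, shared by both enzymes, from 7.24 and 7.22 to 6.40 and 5.90 (adjusted p = 0.00383). Without mock replicate 1, mock replicate 2, inhibitor replicate 1 and inhibitor replicate 2, the list held 2, 4, 16 and 3 falls. Among translation factors, EIF3B fell from 8.68 and 8.67 to 7.84 and 7.63 (adjusted p = 0.00212). Of 43 translation factors 8 fell (18.6%, against 3.62% of all genes). That count was 2, 5, 9 and 6 in the same order.

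Proteins of the cytosolic ribosome itself held a single call. Of 56 measured, 1 fell (1.8%, against 3.62% of all genes) and none rose, and the median was 0.01. RPL41, RPL7 and RPL23A, the brightest, lay between 12.28 and 12.74 on all 4 arrays, near the top of the scale. The gene that fell was RPL22L1, a paralog of a ribosomal protein, from 8.19 and 8.12 to 7.17 and 6.95 (adjusted p = 0.00108). Only 56 of the 80 genes of this list could be measured by a probe set of their own.

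Aminoacyl-tRNA synthetases, which load transfer RNA, fell in 11 of 32 cases (34.4%, against 3.62% of all genes). All 32 changes were negative, with a median of -0.49. VARS1 went from 7.49 and 7.16 to 6.31 and 6.17 (adjusted p = 0.00151), LARS1 from 7.12 and 7.07 to 6.39 and 5.98 (adjusted p = 0.00377), and FARSB from 7.65 and 7.66 to 6.88 and 6.94 (adjusted p = 0.00528). They load valine, leucine and phenylalanine. The count of falls was 3, 5, 17 and 6 without mock replicate 1, mock replicate 2, inhibitor replicate 1 and inhibitor replicate 2.

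Many genes that supply mitochondria with protein fell. Of 32 import factors and mitochondrial chaperones 21 fell (65.6%, against 3.62% of all genes), with a median of -0.66. HSPA9, the mitochondrial HSP70, went from 8.38 and 8.31 to 7.36 and 7.47, GRPEL1, its exchange factor, from 7.46 and 7.46 to 6.47 and 6.57, and C1QBP from 10.22 and 10.30 to 9.37 and 9.41. TIMM50, a receptor of the inner membrane translocase, fell by 0.89, and PNPT1, an RNA-degrading enzyme of mitochondria, by 1.15. Both replicates of each moved alike.

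Of 75 mitochondrial ribosomal proteins 26 fell (34.7%, against 3.62% of all genes) and none rose, with a median of -0.37. MRPS2 was among the falls, from 7.19 and 7.08 to 6.20 and 6.29 (adjusted p = 0.00267). Of the 67 subunits of the respiratory chain and ATP synthase 2 fell (3.0%, near the 3.62% of all genes) and none rose, with a median of -0.02, or 0.02 after quantile normalization was applied again. Those were CYCS, the electron carrier cytochrome c, and ATP5MC1, both with changes of at most 0.45 in size. Both lost the call without mock replicate 1, mock replicate 2 or inhibitor replicate 2, ATP5MC1 also without inhibitor replicate 1, and both without any 1 of the 8 arrays of the other lines (adjusted p up to 0.198 and 0.188). Without mock replicate 1, mock replicate 2 and inhibitor replicate 2 the import list held 11, 13 and 14 falls and the mitochondrial ribosome list 7, 3 and 10. Without inhibitor replicate 1 they held 21 and 24.

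Transcripts for several steps of nucleotide synthesis fell. Of 39 genes of nucleotide and one-carbon metabolism 16 fell (41.0%, against 3.62% of all genes), with a median of -0.43. For purines, ATIC, which carries out the last steps to IMP, went from 7.84 and 7.85 to 6.94 and 6.43, GART from 7.23 and 7.14 to 6.48 and 6.22, and IMPDH2, which commits IMP to GTP, from 8.56 and 8.56 to 7.84 and 7.60. For pyrimidines, CAD, the enzyme of the first 3 steps, went from 7.14 and 7.0 to 6.14 and 5.90, and CTPS1, which makes CTP, from 7.38 and 7.41 to 6.59 and 6.62. The adjusted p of these 5 genes ran from 0.00232 to 0.00424.

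NME1, a nucleoside diphosphate kinase, fell by 0.85 (adjusted p = 0.0019). A single gene of the list rose (2.6%, near the 2.15% of all genes). This was DCK, which salvages deoxycytidine, from 8.43 and 8.37 to 8.97 and 8.83 (adjusted p = 0.04). It was called in none of the 12 fits that left out an array. The number of falls was 8, 7, 20 and 9 without mock replicate 1, mock replicate 2, inhibitor replicate 1 and inhibitor replicate 2.

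In polyamine and amino acid supply 9 of 30 genes fell (30.0%, against 3.62% of all genes) and 2 rose (6.7%, against 2.15%). The median was -0.34. SRM, which makes spermidine, went from 9.13 and 9.28 to 7.51 and 8.11 (2.63-fold lower, adjusted p = 0.00139). BCAT1, the cytosolic aminotransferase of branched-chain amino acids, went from 8.73 and 8.66 to 7.40 and 7.24 (adjusted p = 0.000206). Its 3 other probe sets changed by -1.50, -1.85 and -1.16. SLC38A5, a glutamine carrier, fell from 4.87 and 4.74 to 3.51 and 3.44. ODC1, the first enzyme of polyamine synthesis, fell by 0.66 but lost the call without mock replicate 1 or mock replicate 2 (adjusted p up to 0.0632).

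The 2 genes that rose there were also carriers, SLC38A2 (change 0.49) and the cystine carrier SLC7A11 (change 0.69). Both lost the call without any 1 of the 4 Rec-1 arrays, with adjusted p up to 0.189 and 0.2. The falls numbered 3, 5, 11 and 7 without mock replicate 1, mock replicate 2, inhibitor replicate 1 and inhibitor replicate 2.

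Of 37 glycolysis and hypoxia-response genes 8 fell (21.6%, against 3.62% of all genes) and 2 rose (5.4%, against 2.15%). The median was -0.27. HK2, the hexokinase that starts glycolysis, went from 6.03 and 5.72 to 4.01 and 3.91, 3.76-fold lower (adjusted p = 0.000125). PFKM, a phosphofructokinase subunit, went from 5.77 and 5.58 to 4.56 and 4.14 (adjusted p = 0.00139), and VEGFA, a vessel growth factor, from 4.31 and 4.38 to 3.39 and 2.99 (adjusted p = 0.00489). Other probe sets of HK2, at levels under 4.1, had changes of 0.17 and -0.77. PFKL, another phosphofructokinase, rose by 0.56 (adjusted p up to 0.144 with an array left out), and BNIP3L, a receptor for the removal of mitochondria, by 0.57 (up to 0.212). Both rises were lost without mock replicate 1, mock replicate 2 or inhibitor replicate 2, and that of BNIP3L also without inhibitor replicate 1. The falls numbered 3, 3, 8 and 6 without mock replicate 1, mock replicate 2, inhibitor replicate 1 and inhibitor replicate 2.

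Chaperones and transport factors of the nucleus followed. Of 33 heat-shock and chaperonin genes 12 fell (36.4%, against 3.62% of all genes), with a median of -0.41. FKBP4, a cochaperone of HSP90, went from 6.43 and 6.01 to 4.88 and 4.55 (2.83-fold lower, adjusted p = 0.000624), and HSP90AB1, the constitutive HSP90, from 10.83 and 10.79 to 9.98 and 10.15 (adjusted p = 0.00466). Of 45 nuclear pore and transport genes 10 fell (22.2%, against 3.62% of all genes), with a median of -0.36. IPO4, an import receptor, went from 6.30 and 6.28 to 5.04 and 4.91 (adjusted p = 0.000624), RCC1, the exchange factor of the GTPase Ran, from 7.80 and 7.78 to 6.91 and 6.87 (adjusted p = 0.00135), and RANBP1 from 9.03 and 9.10 to 8.18 and 8.30 (adjusted p = 0.0027). None of the genes in either list rose. Without mock replicate 1, mock replicate 2 and inhibitor replicate 2 the chaperone list held 4, 4 and 8 falls and the transport list 3, 4 and 3, and without inhibitor replicate 1 they held 10 and 12.

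Other growth lists held fewer calls. Of 29 proteasome subunits 4 fell, with a median of -0.17, and without inhibitor replicate 1, inhibitor replicate 2 and each mock array the count was 1, 2 and 0. The 4 proteasome falls were 13.8% of that list, against 3.62% of all genes. The 15 genes of the MYC network held 1 fall, MYC itself, and 1 rise (6.7% each, against 3.62% and 2.15% of all genes). That rise was MXD3, which competes with MYC for MAX, from 5.17 and 5.21 to 6.13 and 6.34 (2.06-fold higher, adjusted p = 0.00244). MAX lay between 7.13 and 7.46 on all 4 arrays (change -0.15, and 0.01 as the mean of its probe sets). In cholesterol and fatty acid synthesis 2 of 29 genes rose (6.9%, against 2.15% of all genes) and 1 fell (3.4%, near the 3.62% of all genes). STARD4, a sterol carrier, rose from 5.12 and 5.18 to 6.10 and 5.89 (adjusted p = 0.00471). FASN, the fatty acid synthase, fell from 6.03 and 6.29 to 4.86 and 5.27 (adjusted p = 0.00441, and 0.0522 without mock replicate 2).

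**Figure D3:**
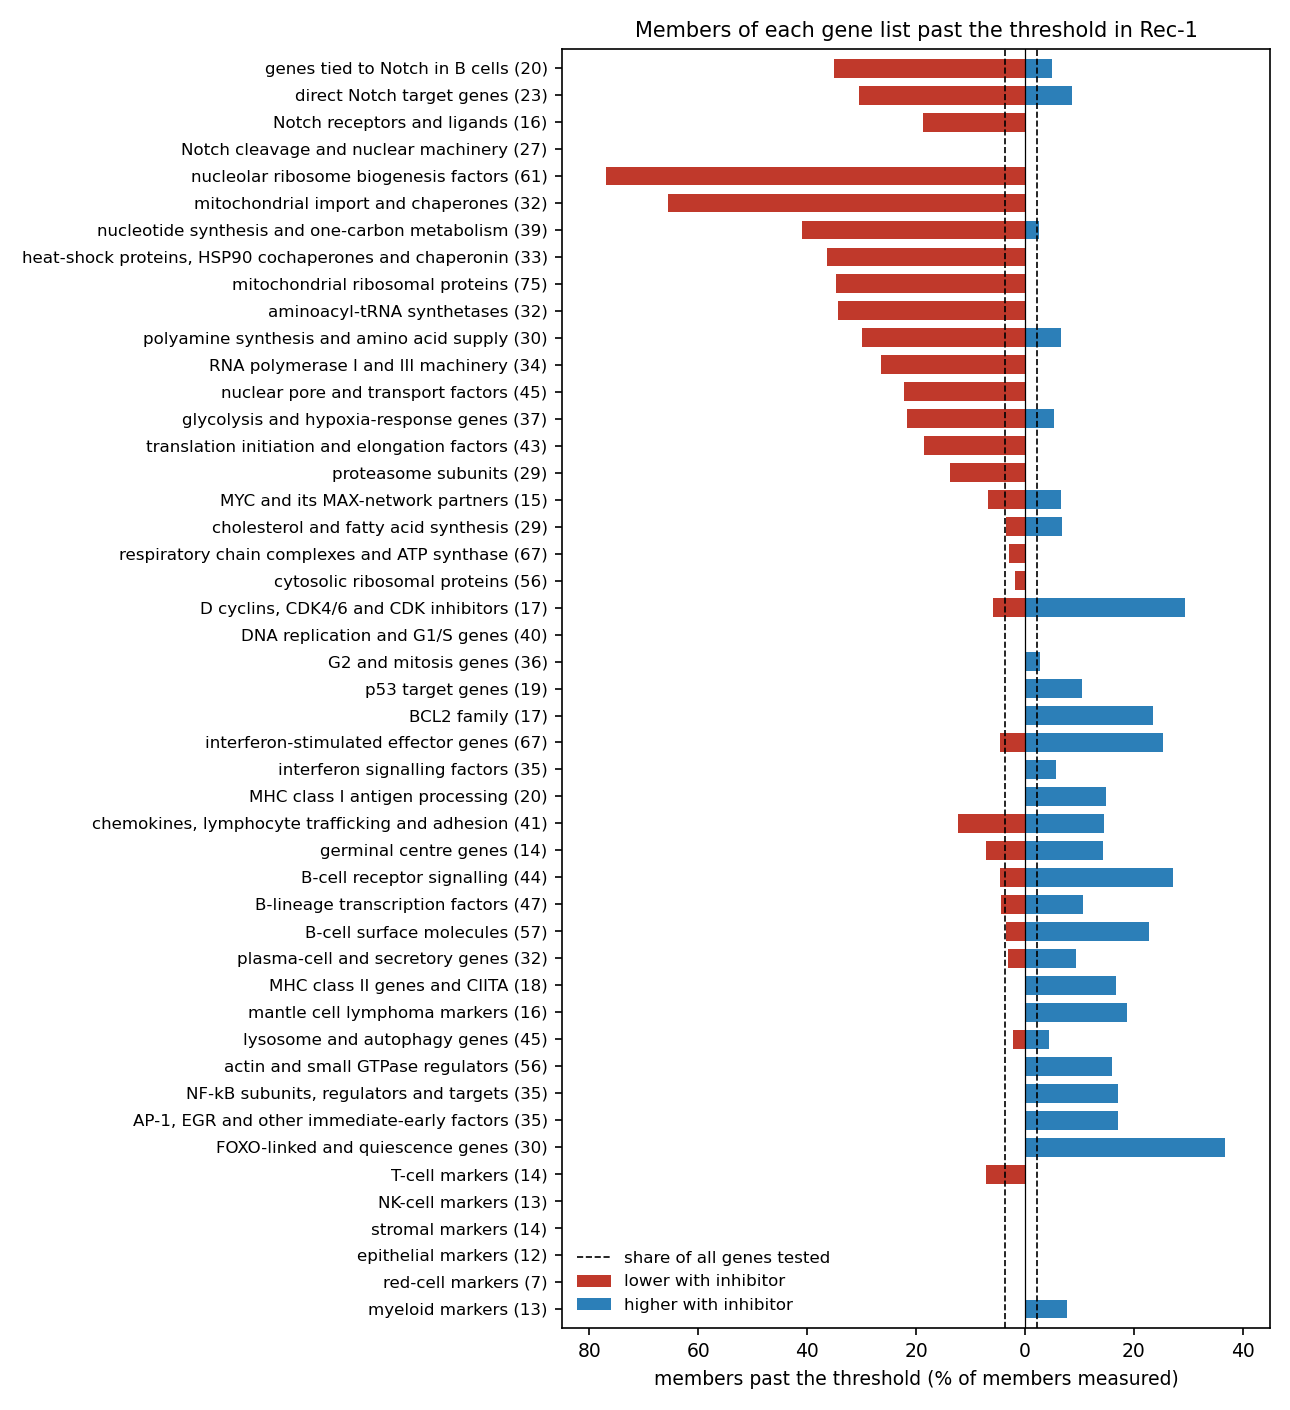
Share of the measured members of each of 47 gene lists that fell (red, to the left) or rose (blue, to the right) past the threshold, in percent, with the number measured in brackets. Dashed lines mark the shares of all genes, 3.62% lower and 2.15% higher; nucleolar ribosome biogenesis reaches 77.0% lower, and FOXO-linked and quiescence genes 36.7% higher.

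Of the genes of DNA replication, G1/S, G2 and mitosis 1 passed the threshold. None of the 40 genes of DNA replication and G1/S passed the threshold by limma, with 6 at an unadjusted p under 0.05, and their median was -0.07, or 0.04 after quantile normalization was applied again. PCNA, the clamp of DNA polymerase, lay between 10.60 and 10.74, and MCM7, of the replicative helicase, between 8.63 and 8.94. Of 36 genes of G2 and mitosis 1 rose (2.8%, near the 2.15% of all genes), with a median of 0.06. That was HMMR, a protein of the spindle, with a change of 0.50 and an adjusted p up to 0.182 with an array left out, lost without any 1 of the 4 Rec-1 arrays. CDK1, the mitotic kinase, lay between 9.23 and 9.48.

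Some genes of quiescent lymphocytes rose. Of 30 FOXO-linked and quiescence genes 11 rose and none fell (36.7% of the list, against 2.15% of all genes), with a median of 0.34. With a gene's probe sets averaged 7 rose and the median was 0.20. YPEL5, of a conserved family linked to cell division, went from 5.99 and 6.02 to 7.58 and 7.52, 2.92-fold higher (change 1.55, SE 0.123, adjusted p = 0.000136). A second probe set of YPEL5 changed by 1.28. CCNG2, a cyclin of arrested cells and a FOXO target, went from 5.71 and 5.62 to 6.85 and 6.64 (adjusted p = 0.000903). KLF2, which keeps lymphocytes quiescent, went from 4.23 and 4.04 to 5.74 and 5.36 (adjusted p = 0.00139). TOB1, an antiproliferative factor, rose by 0.75 (adjusted p = 0.00558).

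TXNIP, which lowers glucose uptake, was at 7.97 and 7.96 against 8.64 and 8.65, and BTG1, an antiproliferative factor, at 7.36 and 7.28 against 8.04 and 7.99. Their groups did not overlap, and both were lost without mock replicate 1 or mock replicate 2 (adjusted p up to 0.0586 and 0.103). The list held 4, 5, 7 and 8 rises without mock replicate 1, mock replicate 2, inhibitor replicate 1 and inhibitor replicate 2.

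Of the 17 D cyclins, CDK4/6 and CDK inhibitors 5 rose (29.4%, against 2.15% of all genes) and 1 fell (5.9%, against 3.62%). The median was 0.36. With a gene's probe sets averaged 3 rose and the median was 0.16. Apart from CCNG2, each of these calls was lost without mock replicate 1 or mock replicate 2 and without at least 1 inhibitor array. They were RBL2, a pocket protein (0.59), CDKN1B, the inhibitor p27 (0.50), CDKN2D, the inhibitor p19 (1.03), CDKN1A (0.81) and CDK4, the partner of D cyclins, which was at 9.75 and 9.71 against 9.22 and 9.23. The list held 1, 2, 2 and 3 rises without mock replicate 1, mock replicate 2, inhibitor replicate 1 and inhibitor replicate 2, and no fall in any of these fits. CCND1, the cyclin of this lymphoma, was at 10.12 and 10.13 against 10.51 and 10.51 (change 0.39, adjusted p = 0.0755).

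Of the 17 members of the BCL2 family 4 rose (23.5%, against 2.15% of all genes) and none fell, with a median of -0.05. BCL2, which protects from apoptosis, went from 5.83 and 5.59 to 6.78 and 6.74 (2.07-fold higher, adjusted p = 0.00212). Its 3 other probe sets, at levels under 3.3, had changes of -0.10, 0.54 and 0.24. MCL1 (0.66), BCL2A1 (0.93) and BIK (0.76) were the others, so 3 of the 4 are protective members and BIK is not. These last 3 were lost without mock replicate 1, mock replicate 2 or inhibitor replicate 1, and BCL2A1 also without inhibitor replicate 2. The list then held 1, 1 and 1 rises, and 3 without inhibitor replicate 2. Without inhibitor replicate 1 it also held 2 falls.

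Of 19 p53 target genes 2 rose (10.5%, against 2.15% of all genes). TP53INP1, a stress protein that is also induced outside p53 signalling, went from 5.76 and 5.61 to 7.36 and 7.37, 3.2-fold higher (adjusted p = 0.00191), and CDKN1A was the other. DDB2, a repair gene that p53 induces, was at 5.43 and 5.39 against 5.85 and 5.96 (adjusted p = 0.0725).

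Several interferon-stimulated genes rose. Of 67 effector genes measured 17 rose (25.4%, against 2.15% of all genes) and 3 fell (4.5%, near the 3.62% of all genes). Of the 67 changes 53 were positive, with a median of 0.45. MX1, an antiviral GTPase, was at 4.94 and 4.99 on the mock arrays and at 6.67 and 6.64 with the inhibitor, 3.23-fold higher (change 1.69, SE 0.116, adjusted p = 4.42e-05). IFITM1, which blocks virus entry, went from 4.43 and 4.55 to 6.19 and 6.10 (adjusted p = 0.000158). ISG15, a ubiquitin-like modifier, went from 4.40 and 4.95 to 6.55 and 6.45 (adjusted p = 0.000504). In these 3 genes the inhibitor arrays lay close together and far above both mock arrays.

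TRIM22, a ligase with antiviral action, went from 6.05 and 6.03 to 7.29 and 7.35 (adjusted p = 0.000288). IFI44L started in the background range and went from 1.67 and 1.72 to 3.24 and 3.39 (adjusted p = 0.000357), so its 3.08-fold rise is understated. SAMD9L, a restriction factor and growth suppressor, went from 3.99 and 3.91 to 6.50 and 5.76, 4.51-fold higher, and a second probe set changed by 1.89. TNFSF10, the death ligand TRAIL, went from 3.63 and 3.22 to 5.38 and 4.89 (adjusted p = 0.000677). CMPK2, a mitochondrial nucleotide kinase induced by interferon, went from 2.83 and 2.47 to 5.01 and 3.99, and IFIT3, which binds viral RNA complexes with its relatives, from 3.35 and 2.82 to 4.92 and 4.58. The count of rises in the list was 15, 14, 18 and 20 without mock replicate 1, mock replicate 2, inhibitor replicate 1 and inhibitor replicate 2.

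The factors that relay the interferon signal rose in 2 of 35 cases (5.7%, against 2.15% of all genes), and none fell. IRF7, the regulator of interferon production, went from 5.12 and 5.10 to 6.47 and 6.49 (2.58-fold higher, adjusted p = 0.000754), and IRF9, the DNA-binding part of the factor ISGF3, from 5.01 and 5.03 to 6.24 and 6.29 (2.36-fold higher, adjusted p = 0.000423). Replicates of both genes lay within 0.05 of each other. The median of the signalling list was -0.04, or 0.04 after quantile normalization was applied again. The bright members TLR10, IRF8 and IFNGR1 had changes of 0.35, -0.23 and -0.17 (adjusted p from 0.203 to 0.636).

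The 3 effector genes that fell were CXCL10, CXCL9 and PNPT1. CXCL10 was at 6.35 and 6.46 against 4.74 and 3.43 (change -2.32, SE 0.376, adjusted p = 0.00455). CXCL9 was at 2.31 and 2.26 against 1.49 and 1.43, in the background range, and lost its call without mock replicate 1 or mock replicate 2 (adjusted p up to 0.0759). Both are chemokines known for induction by interferon gamma and by NF-kB, and they moved against the antiviral effectors.

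Of the 52 effector promoters matched, 37 held the interferon motif (71.2%), against 6.7% of all promoters. With only the bases before the start searched, the shares were 59.6% and 5.8%. Holders included ISG15 and MX1, which rose, but also IFIT1, OAS3 and RSAD2, which were not called. CXCL10 and CXCL9, which fell, held it too, and how many of the holders rose was not counted. In the whole promoters the motif was held by 12.1% of genes that rose and 5.2% of those that fell. The effector promoters had a median GC content of 52.8% against 63.0% for all, and the part of base composition in the share was not tested.

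Of 20 genes of MHC class I processing 3 rose (15.0%, against 2.15% of all genes) and none fell, with a median of 0.18. TAP1, the peptide transporter, had a change of 0.55, HLA-C of 0.58 and PSMB9, of the immunoproteasome, of 0.61. Each was lost without mock replicate 1 or mock replicate 2, TAP1 and HLA-C also without inhibitor replicate 2 and PSMB9 without inhibitor replicate 1 (adjusted p up to 0.132 to 0.241). The list held no call without mock replicate 1 or mock replicate 2 and 1 without inhibitor replicate 2.

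**Figure D4:**
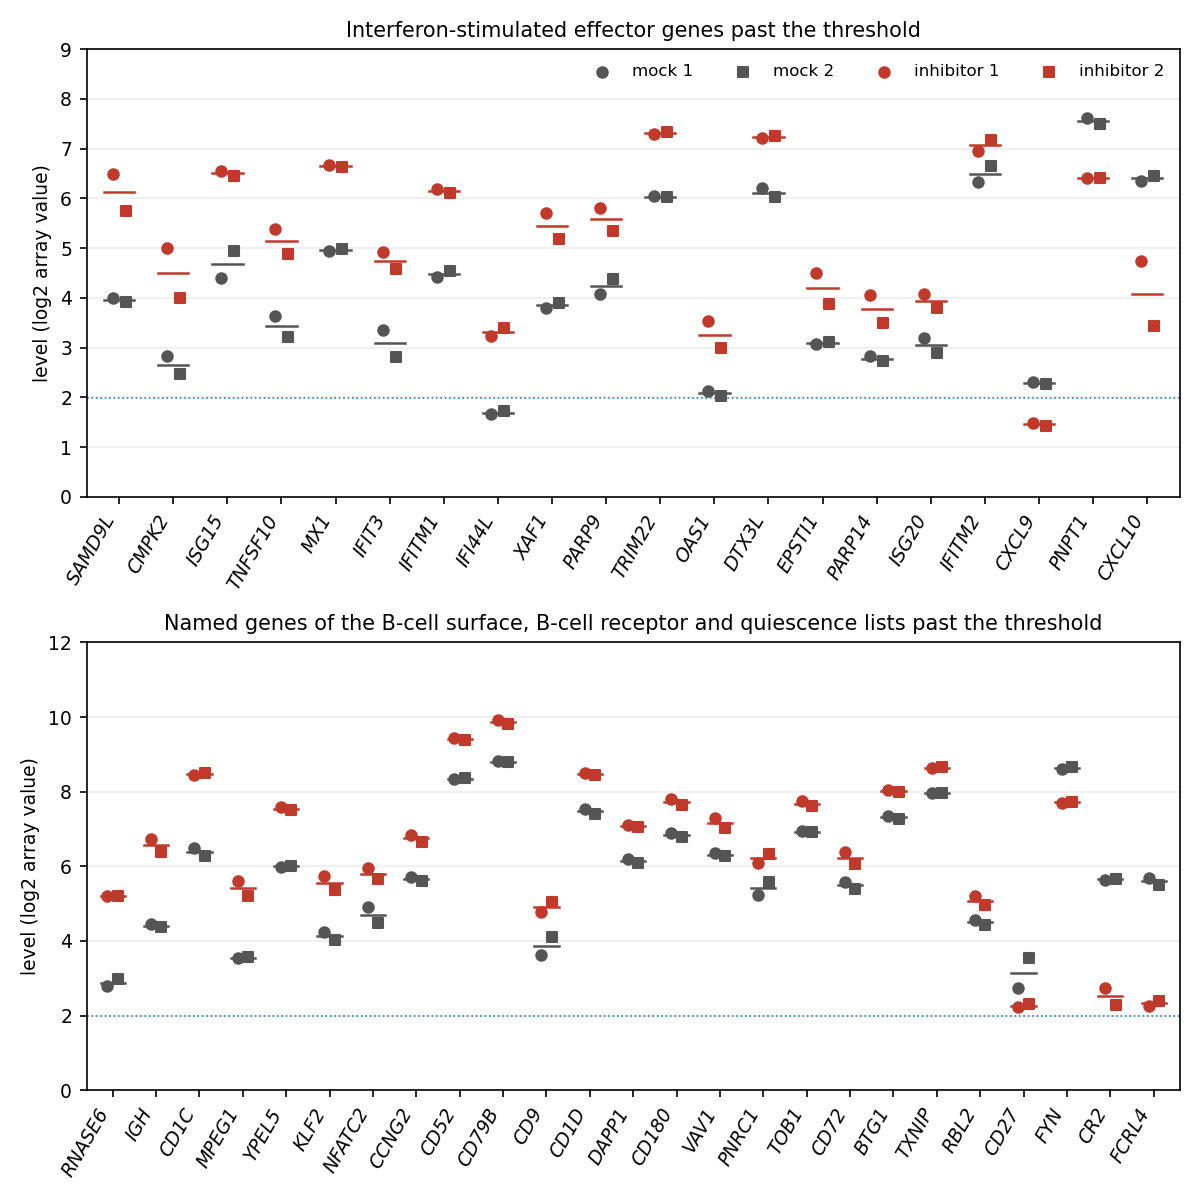
Level (log2 array value) of the 20 interferon-stimulated effector genes past the threshold (upper) and of the named genes past it from the B-cell surface, B-cell receptor and quiescence lists (lower) on the Rec-1 arrays. Grey marks mock and red the inhibitor, circles are replicate 1, squares replicate 2, bars pair means and the dotted line the median of all probe sets; MX1 sits at 4.94 and 4.99 in mock cells and at 6.67 and 6.64 with the inhibitor.

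B-cell genes rose more often than they fell. Of 250 genes in the 8 B-cell lists 43 rose (17.2%, against 2.15% of all genes) and 13 fell (5.2%, against 3.62%), with a median of 0.16. In B-cell receptor signalling 12 of 44 rose (27.3%, against 2.15% of all genes) and 2 fell (4.5%, near the 3.62%). Those that fell were CR2 and FYN, and the list median was 0.28. With a gene's probe sets averaged 6 rose and the median was 0.11. CD79B, a signalling chain of the receptor, was at 8.81 and 8.79 against 9.91 and 9.81, 2.08-fold higher (adjusted p = 0.000793). DAPP1, an adaptor below the receptor, went from 6.19 and 6.10 to 7.11 and 7.05 (adjusted p = 0.00129), and NFATC2, a calcium-dependent transcription factor, from 4.92 and 4.48 to 5.94 and 5.66 (adjusted p = 0.00349). The other probe sets of NFATC2, at levels under 4.3, did not follow, with changes of -0.01, -0.24 and -0.23. Those of DAPP1 changed by 0.51, 0.21 and 0.26, and those of CD79B, at levels near background, by -0.12 and -0.05.

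The immunoglobulin heavy chain locus was read by several probe sets that gave different values. The brightest one named IGH went from 4.44 and 4.37 to 6.73 and 6.39 (4.44-fold higher, adjusted p = 0.000504), while 3 others had changes of 0.24, -0.21 and -0.07. CD79A, the partner of CD79B, was at 8.98 and 9.16 against 9.38 and 9.71 (change 0.47, adjusted p = 0.1). The receptor list held 5, 4, 9 and 10 rises without mock replicate 1, mock replicate 2, inhibitor replicate 1 and inhibitor replicate 2.

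Of 57 B-cell surface molecules 13 rose (22.8%, against 2.15% of all genes) and 2 fell (3.5%, near the 3.62%). The median was 0.22, or 0.09 with a gene's probe sets averaged. CD1C, which presents lipids and marks marginal zone B cells, was at 6.49 and 6.28 against 8.45 and 8.50, 4.25-fold higher (adjusted p = 0.000567). CD1D, its relative that presents to NKT cells, was at 7.55 and 7.41 against 8.51 and 8.45, 2-fold higher (adjusted p = 0.00455, and 0.0501 without mock replicate 2). CD52 went from 8.33 and 8.35 to 9.45 and 9.39, and CD180, a Toll-like receptor homolog, from 6.91 and 6.80 to 7.81 and 7.64. MPEG1, a perforin-like protein of the endolysosome, went from 3.53 and 3.57 to 5.61 and 5.21, and a second probe set changed by 1.64. RNASE6, a secreted ribonuclease, went from 2.79 and 2.97 to 5.20 and 5.21, 5.01-fold higher (adjusted p = 0.000371).

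The 2 surface molecules that fell were FCRL4 and CD27, a TNF receptor of memory B cells. CD27 was at 2.74 and 3.54 against 2.24 and 2.30, a change of -0.87 that lost its call without mock replicate 2 or either inhibitor array (adjusted p up to 0.19). MS4A1 (CD20) was at 10.25 and 10.23 against 10.72 and 10.78, and lost its call without any 1 of the 4 Rec-1 arrays (adjusted p up to 0.179). The surface list held 7, 7, 10 and 10 rises without mock replicate 1, mock replicate 2, inhibitor replicate 1 and inhibitor replicate 2.

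Of 47 B-lineage transcription factors 5 rose (10.6%, against 2.15% of all genes) and 2 fell (4.3%, near the 3.62% of all genes), with a median of 0.05. ID3, which holds E proteins in check, rose from 6.19 and 6.01 to 7.09 and 6.90 (adjusted p = 0.00373), and KLF2 as above. RUNX3 fell from 7.56 and 7.46 to 6.54 and 6.69 (1.86-fold lower, adjusted p = 0.00151), and its bright second probe set changed by -1.09. PAX5, the factor of B-cell identity, was at 8.86 and 8.87 against 8.42 and 8.49 (change -0.41, adjusted p = 0.102). Rises in this list numbered 3, 2, 3 and 5 without mock replicate 1, mock replicate 2, inhibitor replicate 1 and inhibitor replicate 2.

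Of 32 plasma-cell and secretory genes 3 rose (9.4%, against 2.15% of all genes) and 1 fell (3.1%, against 3.62%), with a median of -0.01 (0.08 after quantile normalization was applied again). JCHAIN, which joins IgM and IgA into polymers, rose from 4.81 and 4.69 to 6.22 and 6.40, 2.96-fold (adjusted p = 0.000653). FKBP11, a folding enzyme of the endoplasmic reticulum, fell from 6.90 and 7.02 to 5.73 and 5.74, 2.34-fold (adjusted p = 0.000546), and 2 other probe sets changed by -1.68 and -0.84. Of 14 germinal centre genes 2 rose (14.3%, against 2.15% of all genes) and 1 fell (7.1%, against 3.62%). Of 16 mantle cell lymphoma markers 3 rose (18.8%, against 2.15%), BCL2, ATM and MS4A1. Each germinal centre call, and those of ATM and MS4A1, was lost without mock replicate 1 or mock replicate 2 and without at least 1 inhibitor array. Without mock replicate 1, mock replicate 2, inhibitor replicate 1 and inhibitor replicate 2 the lymphoma markers held 1, 2, 3 and 1 rises, the plasma-cell list 1, 1, 2 and 2 and the germinal centre list 0, 0, 1 and 1.

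In MHC class II 3 of 18 genes rose (16.7%, against 2.15% of all genes). MARCHF1, a ligase that removes class II molecules from the surface, went from 2.01 and 1.79 to 4.33 and 3.15, 3.57-fold higher (adjusted p = 0.00425). HLA-DMA, which loads peptides, rose by 0.63 (adjusted p = 0.0105, and 0.103 without mock replicate 1). CD83, which protects class II molecules from that ligase, was at 7.86 and 7.81 against 8.34 and 8.32 and lost its call without any 1 Rec-1 array (adjusted p up to 0.149).

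Genes of trafficking went both ways, with a median of 0.10. Of 41 measured, 6 rose (14.6%, against 2.15% of all genes) and 5 fell (12.2%, against 3.62%). GPR183, an oxysterol receptor that positions B cells, rose from 4.76 and 4.66 to 5.89 and 5.91 (2.27-fold, adjusted p = 0.00199). CCR2, a chemokine receptor, was at 1.74 and 1.89 against 4.24 and 2.69, a rise from background whose replicates differed by more than 1 unit (adjusted p = 0.0193, up to 0.12 and lost without either mock array). P2RY2, a receptor for extracellular ATP and UTP, fell from 5.36 and 4.71 to 2.30 and 2.52, 6.18-fold (adjusted p = 0.000389). ITGA4, a chain of the integrin VLA-4, was at 6.24 and 6.09 against 5.37 and 5.38 (adjusted p = 0.0146, up to 0.116 and lost without either mock array or inhibitor replicate 2). The list held 4, 2, 3 and 6 rises and 2, 2, 6 and 3 falls without mock replicate 1, mock replicate 2, inhibitor replicate 1 and inhibitor replicate 2.

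Signalling lists held rises with few falls. Of 35 NF-kB genes and of 35 immediate-early factors 6 each rose (17.1%, against 2.15% of all genes) and none fell. The medians were 0.23 and 0.23. With a gene's probe sets averaged 4 and 3 rose, and both medians were 0.12. Of the NF-kB genes, CFLAR, which restrains caspase-8, was at 5.57 and 5.74 against 6.47 and 6.47 (adjusted p = 0.00466, and 0.0531 without mock replicate 1). NFKBIZ, an atypical inhibitor of NF-kB, was at 5.15 and 4.85 against 5.87 and 5.76 (adjusted p = 0.00498, and 0.0574 without mock replicate 2). EGR1, an immediate-early factor, was at 4.79 and 5.03 against 5.70 and 5.85 (adjusted p = 0.0122, up to 0.112 and lost without mock replicate 1 or inhibitor replicate 2). The NF-kB list held 1, 1, 5 and 4 rises and the immediate-early list 2, 2, 5 and 4 without mock replicate 1, mock replicate 2, inhibitor replicate 1 and inhibitor replicate 2.

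Of 56 regulators of actin and small GTPases 9 rose (16.1%, against 2.15% of all genes) and none fell, with a median of 0.20. MTSS1, which links the membrane to actin, rose more than any other gene with a call, from 4.18 and 4.06 to 6.76 and 6.29, 5.32-fold (SE 0.167, adjusted p = 4.42e-05). Its 4 other probe sets, at levels under 3.4, changed by 0.06 to 0.55. GSN, an actin-severing protein, went from 3.40 and 3.43 to 5.03 and 4.66, CAPG, an actin-capping protein, from 2.49 and 2.68 to 4.36 and 3.70, and MYO1G, a myosin of blood cells, from 2.73 and 3.23 to 4.18 and 4.74. VIM, the intermediate filament vimentin, rose from 7.08 and 7.08 to 7.84 and 7.86 (adjusted p = 0.00443). The other probe sets of GSN, 6 in number and at levels under 2.5, changed by -0.19 to 0.19. The list held 6, 5, 10 and 7 rises without mock replicate 1, mock replicate 2, inhibitor replicate 1 and inhibitor replicate 2.

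Of 45 lysosome and autophagy genes 2 rose (4.4%) and 1 fell (2.2%), shares near the 2.15% and 3.62% of all genes. CTSH, a lysosomal protease, rose from 6.13 and 6.28 to 7.10 and 7.19 (adjusted p = 0.00242). The other calls were PSAP (change 0.47) and CTSC (-0.53). PSAP was called in none of the 12 fits that left out an array (adjusted p up to 0.187). CTSC was called in 3 of them, and was lost without mock replicate 1, mock replicate 2 or inhibitor replicate 2 (adjusted p up to 0.196).

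**Figure D5:**
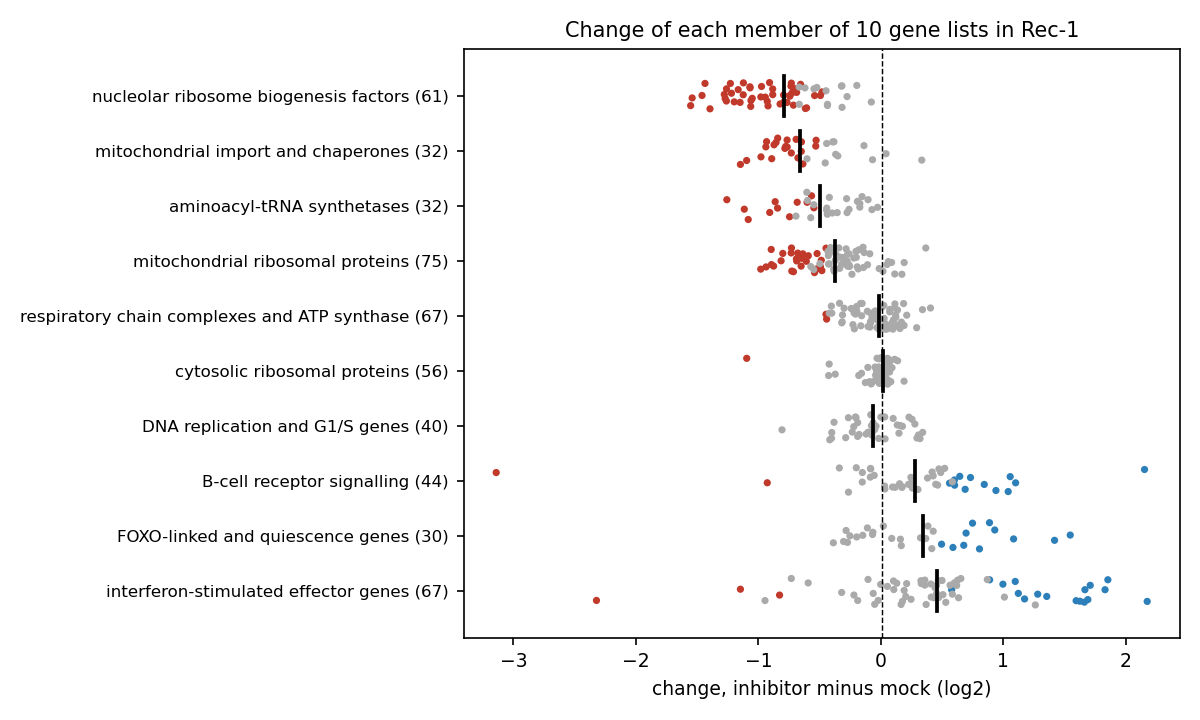
Change of every measured member of 10 gene lists (horizontal axis, inhibitor minus mock, log2), 1 point a gene with vertical scatter only for legibility. Red points fell, blue points rose, grey points did not pass, black bars are list medians and the dashed line the median of all genes; all 61 ribosome biogenesis factors lie left of 0, while cytosolic ribosomal proteins centre on 0.01.

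Outside the lists, several genes were among the 20 largest falls. KAZN, a protein of cell junctions and the cytoskeleton, was at 6.11 and 6.28 against 3.87 and 3.98, 4.81-fold lower (adjusted p = 0.000158), with other probe sets at -1.13, -0.39 and 0.32. TSPAN11, a tetraspanin, was at 5.39 and 5.41 against 3.53 and 3.35, 3.9-fold lower. SLC29A1, the nucleoside carrier ENT1, was at 6.84 and 7.13 against 5.06 and 5.22, 3.59-fold lower (adjusted p = 0.000231), and a second probe set changed by -1.01. PRR5, a subunit of mTORC2, was at 7.73 and 7.69 against 6.15 and 5.64, 3.51-fold lower, with a second probe set at -2.34. ABHD6, a lipase that degrades the endocannabinoid 2-arachidonoylglycerol, was at 6.86 and 6.78 against 4.82 and 5.43, and 2 further bright probe sets changed by -1.76 and -1.84.

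RNA-modifying and biosynthetic enzymes stood among them as well. PUS7, a pseudouridine synthase, went from 6.52 and 6.30 to 4.98 and 4.0 (3.79-fold lower), and DPH2, of diphthamide synthesis on elongation factor 2, from 5.74 and 5.71 to 4.38 and 3.52. COA7, an assembly factor of cytochrome oxidase, went from 5.56 and 5.69 to 4.21 and 3.50. In each of these 3 the inhibitor arrays differed by more than 0.7 between replicates, though both lay below mock. The promoters of all 3 hold an E-box, which begins at 29 in PUS7, at -18 in DPH2 and at -9 in COA7. IL7, the lymphoid cytokine, was at 4.82 and 4.67 against 3.75 and 2.19 (adjusted p = 0.0182, up to 0.116 and lost without either mock array). The probe set named SP3P, a pseudogene of SP3, fell from 4.99 and 5.33 to 3.49 and 2.72, and that of MATR3, a nuclear matrix protein, from 2.88 and 3.15 to 1.43 and 1.10, close to background. EPDR1, an ependymin-related protein, fell from 4.56 and 4.58 to 3.43 and 2.31.

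The largest rises outside the lists were C16orf54, TBC1D10C, DTNB-AS1 and ZNF595. C16orf54 was at 2.05 and 2.63 against 5.06 and 4.34, 5.13-fold higher from near background. TBC1D10C (carabin), an inhibitor of calcineurin and Ras in lymphocytes, was at 4.26 and 4.29 against 6.07 and 5.91, 3.28-fold higher (adjusted p = 0.000137). DTNB-AS1, an antisense RNA, was at 3.62 and 3.35 against 5.38 and 5.10, and ZNF595, a zinc-finger gene, at 1.56 and 1.93 against 3.63 and 3.25.

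Markers of other cell types held 1 rise and 1 fall among 73 genes (1.4% each, against 2.15% and 3.62% of all genes). CD3D, a chain of the T-cell receptor complex, was at 4.81 and 4.79 against 4.03 and 4.30 (adjusted p = 0.0253, up to 0.133 and lost without either mock array or inhibitor replicate 1). FCN1, a myeloid lectin, was at 1.71 and 1.38 against 2.14 and 2.38, in the background range, and lost its call without mock replicate 2 or inhibitor replicate 2. The summed linear level of the 14 T-cell markers was 85.8 and 95.2 in mock cells and 77.4 and 78.3 with the inhibitor, and that of the 13 myeloid markers 38.3 and 37.6 against 41.8 and 43.1. Sums of the 13 NK-cell, 12 epithelial and 7 red-cell markers overlapped between treatments. The 14 stromal markers summed to 71.6 and 75.3 against 94.9 and 78.4, with COL3A1 and DCN at or under 2.29 on every array. Interferon, growth and B-cell changes were read on these same arrays, and the part of these markers in them was not tested; apart from CD3D no marker of another cell type exceeded 4.18.

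Other probe sets of the same genes gave a second reading of the same RNA. Of 581 other probe sets of 266 genes that rose, 75.7% also had a positive change, and of 880 of 439 genes that fell, 75.5% had a negative one. For genes without a call the share of the same sign was 57.2%. Limited to probe sets above the median level on at least 1 Rec-1 array, the shares were 79.7%, 81.8% and 61.8%. Of the other 2 probe sets of HES1, 1 changed by -1.69 and the dimmest, between 1.52 and 2.27 on all arrays, by 0.23. The second probe set of HEY1 changed by -3.36.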

How the data were processed

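RNA of Rec-1 and 2 other lymphoma lines was hybridised to Affymetrix arrays, 2 arrays for each of 6 groups, from biotin-labelled cRNA made from 5 µg of total RNA, per the labels' protocols. The deposited log2 values were normalized by the authors. The submitters' processing notes name RMA and limma without versions, and no count behind a value exists, so the number of arrays limits the precision.

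Of 54675 probe sets, 41097 name 1 gene, 1801 several and 11777 none in the platform annotation. Symbols of 41043 were updated by gene number to RefSeq. Each of 19775 genes was read by the single-gene probe set with the highest mean over 12 arrays. limma (3.58.1, R 4.3.3) fitted 6 group means over 12 arrays (6 residual and 5.22 prior degrees of freedom, median SE 0.164), and p-values of Rec-1 inhibitor minus mock were adjusted by Benjamini-Hochberg over all genes. On simulated data in this layout over 19775 genes, 94% of changes of size 1 and 14% of size 0.5 were recovered, with 4 false calls. The simulation gave every gene and array the same noise (SD 0.197). In the data the Rec-1 inhibitor pair differed most (SD of the replicate difference 0.372), so these figures may not hold for it.

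The genes named are 15 Notch pathway genes, the 20 largest rises and falls, up to 8 called members of each of 47 lists and every called member against a list's main direction, and the 3 brightest members of lists with fewer than 3 calls. The members and lists were chosen with earlier results of these data known. Replicate numbers were not used as pairs in the main fit. Replicate differences of mock and inhibitor correlated at 0.046 in Mino, 0.094 in Rec-1 and -0.011 in SP-49. Such correlations cannot show whether arrays with the same number were handled together. Promoters were matched for 15384 genes. Alternatives covered normalization, probe-set choice, dim genes, variance models, arrays fitted, a minimum change, a replicate block and leaving out each array.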

Additional observations from a re-analysis of the deposited data

How the results depend on the processing

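Against 1141 calls (426 higher, 715 lower), an intensity trend with a robust prior gave 1723 (1089 lower), array weights 696 (238 and 458), Rec-1 with SP-49 alone 736 (271 and 465), Rec-1 with Mino alone 699 (250 and 449), a test against 1.5-fold 58 (23 and 35) and the 4 Rec-1 arrays alone 21 (11 and 10). Quantile normalization applied again gave 657 higher, leaving out both narrow-range inhibitor arrays 380 lower, and testing every probe set 1177 lower. Leaving out 1 array gave 414 to 1997 calls, 147 to 725 of them higher and 246 to 1272 lower, and 150 to 337 of the list members (323 in the fit of all arrays, 16 with 4 arrays, 33 with the 1.5-fold minimum). The share of E-box promoters among genes that fell was 13.0% before the start, and the agreement of brighter probe sets 79.7% and 81.8%. Of the 226 called named genes none changed sign in any alternative run, and 113 kept the call with every array left out in turn. With the replicate number as a replicate block, 868 genes were called (308 higher, 560 lower), 787 of them among the 1141. Whether arrays with the same number belong together is not given in the labels. Named genes without a call changed sign as follows. With the mean of probe sets the change was -0.10 for NOTCH1, -0.12 for SKP1, 0.0074 for MAX, -0.0677 for CD247 and -0.0062 for NCAM1. After quantile normalization applied again it was 0.0546 for CTBP1, 0.0463 for RPL41, 0.0164 for RPL7, 0.0256 for RFC4 and 0.0089 for CKS2. Leaving out both narrow-range arrays gives the same Rec-1 change as leaving out Rec-1 inhibitor replicate 2 alone. Without them the change was 0.0464 for CTBP1, 0.0414 for RPL41, 0.0001 for RPL7, 0.0055 for RPL23A, 0.0632 for ATP5F1A, 0.0233 for CKS2 and -0.12 for CD247. With 1 array left out it ran from -0.0502 to 0.0464 for CTBP1, -0.0415 to 0.0414 for RPL41, -0.0487 to 0.0001 for RPL7, -0.0396 to 0.0055 for RPL23A, -0.1267 to 0.0632 for ATP5F1A, -0.1236 to 0.0233 for CKS2, -0.3405 to 0.0001 for IFNGR1, -0.1183 to 0.2338 for CD247, -0.0572 to 0.3660 for CD4, -0.0575 to 0.2427 for CSF1R, -0.2983 to 0.5228 for PECAM1 and -0.2436 to 0.1353 for KRT8. The cause of these moves was not tested. Fits of fewer arrays also have fewer degrees of freedom, and the part of this in the counts was not tested. Genes near background, HES5 among them, have no range left in which a fall could be seen.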
